A study of Saccharomyces cerevisiae with 8 samples.

Results

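The PAU, COS and YRF1 genes of Saccharomyces cerevisiae are families of related copies that lie mostly at chromosome ends. They were chosen by name: every ID on the arrays whose standard name in NCBI's R64 annotation is PAU or COS followed by a number, or begins with YRF1-. The table held 38 such IDs, and 23 of them had a value on at least 1 array, of 5519 IDs with a value in all. The 23 are 16 PAU genes, 4 COS genes, 2 YRF1 genes and COS111. COS111 meets the naming rule, but it was named for sensitivity to the drug ciclopirox olamine, does not belong to the COS family, and is kept apart below.

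RNA came from strain BY4741 (wild type) and from BY4741 carrying pif1::KanMX, in which a drug-resistance cassette disrupts the gene of the Pif1 DNA helicase. Both strains were grown in rich YPD medium at 28 °C to an A660 of 0.6. They were then kept for 60 more min without addition or with 5 mM ZnCl2. Each of 8 spotted 2-colour arrays compared 2 of these 4 RNAs, with 2 arrays and exchanged dyes per comparison: wild type with zinc over wild type without, pif1 with zinc over pif1 without, pif1 over wild type without zinc, and pif1 over wild type with zinc. The labels do not say whether the 2 arrays held separate cultures or how many clones of the mutant were used, so a p-value here may reflect no more than technical spread. Each value is a log2 ratio, with the RNA before "over" as the numerator, centred on the array's median. They are given as mean ± SD of 2 arrays (n = 2), and a gene passed the test when its adjusted p (limma, Benjamini-Hochberg over all genes tested in the comparison) was below 0.05.

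PAU genes encode seripauperins, small proteins related to cell wall mannoproteins, and are known for transcripts that rise without oxygen and during fermentation. COS genes encode membrane proteins of the DUP380 family that carry ubiquitin and help send cell surface proteins into the multivesicular body for breakdown in the vacuole. YRF1 genes encode a helicase inside the Y′ elements next to telomeres, and these elements are amplified in cells that survive without telomerase. Pif1 removes telomerase from chromosome ends, and genes near ends are subject to silencing by the Sir proteins.

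In the R64 annotation the 3 families have 43 genes, of which 38 lie within 10 genes of a chromosome end and 28 are at most 3 genes from it. The COS and YRF1 genes all lie within 10 genes of an end (11 of 11 and 8 of 8), as do 19 of 24 PAU genes. The interior PAU genes are PAU2, PAU5, PAU7, PAU17 and PAU23. Of the 43 genes, 13 have a direct neighbour from these families: COS1 lies next to YRF1-6, COS6 between PAU12 and YRF1-3, PAU22 next to YRF1-7, PAU24 next to COS2, PAU10 next to YRF1-1, and YRF1-4 next to YRF1-5. Copies may share probes, so a spot named for 1 copy may have read several, and their share in a value was not tested. PAU8, PAU9, COS2, YRF1-1, YRF1-5 and YRF1-8 were not analysed here.

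The arrays themselves have limits that bear on what follows. PIF1 was at −4.90 and −3.72 on the replicate 2 arrays of pif1 over wild type without and with zinc, and had placeholder values, set to missing, on the corresponding replicate 1 arrays. The arrays held 4556 to 5119 values. The 2 arrays of a comparison correlated across genes at 0.868 for zinc in the wild type, 0.573 for zinc in pif1, 0.586 for pif1 without zinc and 0.439 for pif1 with zinc. The pif1-over-wild-type arrays do not close with the zinc arrays: for HSP26, a small heat shock chaperone, the strain difference in zinc response was −3.32 from the zinc arrays and 2.86 from the pif1-over-wild-type arrays. Zinc raised 51 genes at least 4-fold in the wild type. The arrays labelled pif1 over wild type without zinc measured 98.0% and 100% of them, and the arrays labelled pif1 over wild type with zinc measured 64.7% and 80.4%. Across 3857 genes the 2 estimates of the strain difference correlated at −0.251. If the labels of these 2 comparisons were exchanged, which was not tested, the values given below for pif1 over the wild type without and with zinc would trade places. The estimate of the strain difference from these arrays would then change sign. The strain difference tested below averages both estimates, so its values and adjusted p would change as well. The pif1-over-wild-type arrays are described by their labels throughout, and the strain difference is also given without them.

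The families were measured less often than the genome at large. Their 38 IDs had a value in 41.5% of array positions, against 77.2% for all 6212 IDs and 59.7% for other genes within 10 genes of an end. The share was 45.5% for the PAU genes, 37.5% for the COS genes and 37.5% for the YRF1 genes. Of the 38 IDs, 10 (26.3%) had a value on all 8 arrays, against 62.1% of all IDs, and 15 (39.5%) had none, against 11.2%. The 10 measured everywhere are PAU2, PAU3, PAU4, PAU16, PAU17, PAU23, COS1, COS6, COS8 and YRF1-7. The 15 without a value are PAU7, PAU15, PAU19, PAU20, PAU21, PAU22, COS3, COS4, COS5, COS7, COS9, COS10, YRF1-2, YRF1-3 and YRF1-4. Among the PAU genes, the 5 interior ones held values in 65.0% of array positions and the 17 within 10 genes of an end in 39.7%.

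Per the labels, a spot counted only above a minimum diameter and fluorescence, so an empty position means that a spot fell below these limits and not that the RNA was absent. The number of these IDs with a value ran from 12 on replicate 1 of pif1 over wild type without zinc to 20 on replicate 2 of zinc in pif1. Between the 2 arrays of a comparison it differed most for pif1 without zinc (12 and 19) and for zinc in pif1 (14 and 20). A gene measured on fewer than 2 arrays of a comparison has no test, which leaves 14 of the 23 for zinc in the wild type, 13 for zinc in pif1, 12 for pif1 without zinc and 13 for pif1 with zinc. The remaining results are therefore about the better-measured copies and not about the families in full.

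**Figure D1:**
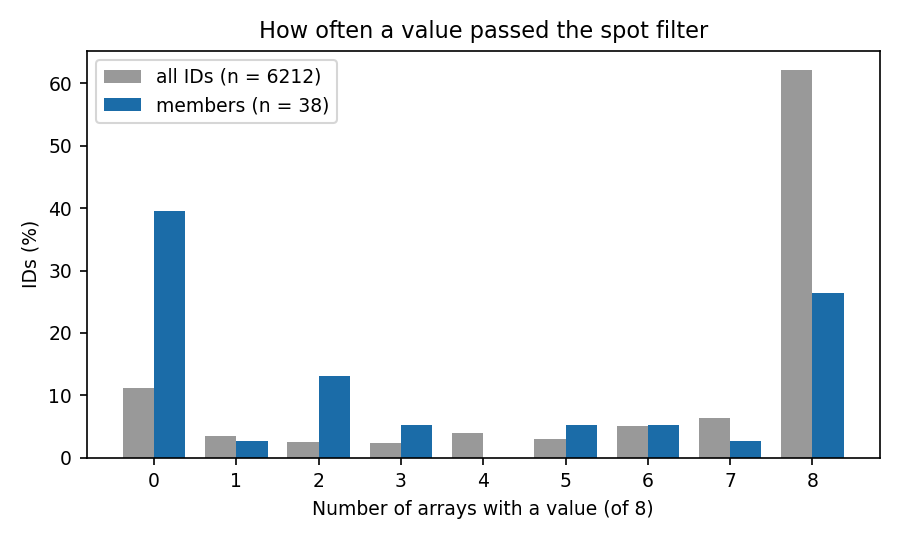
Share of IDs (percent, vertical axis) that had a value on 0 to 8 of the 8 arrays (horizontal axis), in grey for all 6212 IDs and in blue for the 38 IDs of the PAU, COS and YRF1 families with COS111. The families have the taller bar at 0 arrays (39.5% against 11.2%) and the shorter one at 8 arrays (26.3% against 62.1%).

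Zinc in the wild type lowered the Y′ helicase gene YRF1-7, COS6 and PAU23, and raised PAU1. Of 14 genes of these families with both arrays, 1 rose and 3 fell (28.6%), while 30.3% of all 4635 genes tested passed, 14.7% upwards and 15.6% downwards. The share of the families that passed is thus near that of all genes. None of the 14 reached 2-fold by its mean, as did 7.83% of all genes.

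YRF1-7 stood at −0.55 and −0.68 on the 2 wild-type zinc arrays, a mean of −0.61 ± 0.09, or 1.53-fold lower (adjusted p = 0.0113). YRF1-6, the other Y′ helicase copy measured, was at −0.78 and −0.55 (−0.67 ± 0.16) and did not pass (adjusted p = 0.123). It passed with the 2 arrays of this comparison alone, where 1944 of all 4635 genes passed, against 1403 otherwise. Each of the 2 copies lay below 0 on both arrays, but copies may share probes, so the 2 spots may not be separate readings. In RNA from a whole culture, fewer cells carrying a transcript and less transcript per cell cannot be told apart.

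COS6 was at −0.58 and −0.84, a mean of −0.71 ± 0.18 or 1.64-fold lower (adjusted p = 0.0257). COS8 was at −0.23 and −0.29 (adjusted p = 0.207), and COS1, which lies next to YRF1-6, at 0.10 and 0.52 (0.31 ± 0.30, adjusted p = 0.164). COS12 had 1 value, −0.79. The COS genes thus did not share a direction, and the median of the 3 tested was −0.26 against 0.00 for all genes.

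PAU1 was at 0.76 and 0.46, a mean of 0.61 ± 0.22 or 1.53-fold higher (adjusted p = 0.0369). PAU23, an interior member also known as DAN2, was at −0.35 and −0.58, a mean of −0.46 ± 0.16 (adjusted p = 0.0246). These 2 are the ends of the PAU range, and the values of each lie on 1 side of 0. PAU4 had a mean of −0.34, PAU13 −0.16, PAU2 −0.12, PAU16 −0.12, PAU3 0.05 and PAU17 0.08, and none of them passed. PAU12 was at 0.61 on replicate 1 and −0.77 on replicate 2, with a mean of −0.08 ± 0.97. The median of the 9 PAU genes tested was −0.12. Over the same 9 it was 0.05 on replicate 1 and −0.25 on replicate 2. Without replicate 2, 11 PAU genes entered, and their median was 0.13. PAU5 and PAU24 had values only on replicate 1 (0.45 and 0.58), and PAU6 and PAU14 only on replicate 2 (−0.05 and 0.01).

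Each of the 4 calls rests on both arrays. Without replicate 1 the adjusted p was 0.312 for PAU1, 0.112 for COS6, 0.0955 for PAU23 and 0.087 for YRF1-7, and without replicate 2 it was 0.132, 0.25, 0.278 and 0.147, so no call held in either case. With the arrays brought to 1 spread or to 1 distribution, YRF1-7 alone of the 4 passed.

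**Figure D2:**
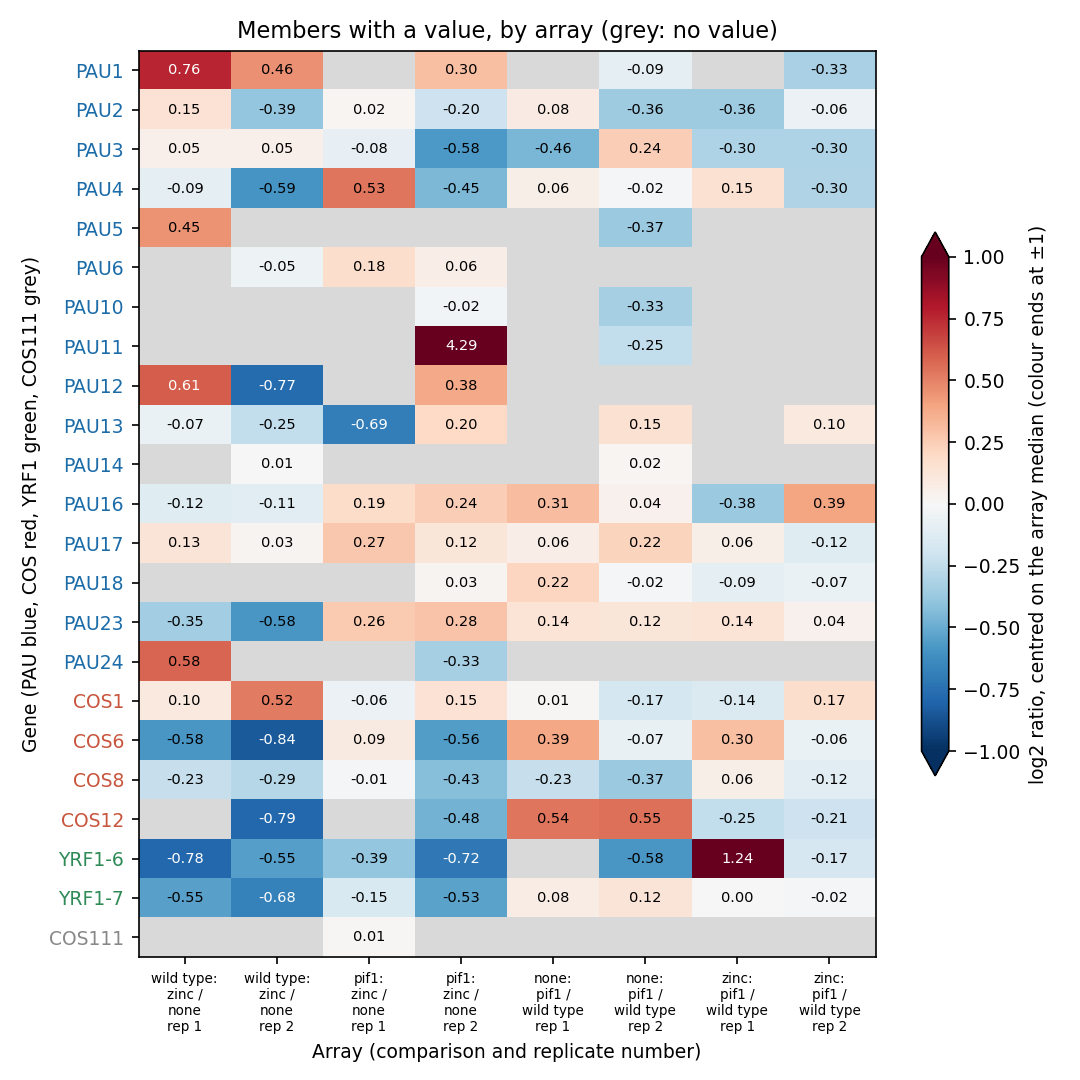
Centred log2 ratio of each of the 23 measured genes (rows) on each of the 8 arrays (columns, named by comparison and replicate), with the value printed in each cell, red above 0 and blue below 0, colour saturating at 1 in size, and grey where there was no value. COS6, YRF1-6 and YRF1-7 are blue on both wild-type zinc arrays, as are COS8, PAU4, PAU13, PAU16 and PAU23. PAU11 stands at 4.29 on replicate 2 of zinc in pif1.

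Zinc in the pif1 mutant gave no change in these families that passed. Of 13 genes tested none passed (0%), and 1 had an unadjusted p below 0.05, while 31.3% of all 4272 genes tested passed. YRF1-7 was again below 0 on both arrays, at −0.15 and −0.53 (−0.34 ± 0.27, adjusted p = 0.0902). It passed with the replicate number as a block (adjusted p = 0.0436), a setting in which 1915 of all 4272 genes passed, against 1338 otherwise. With 1 replicate left out, a pass rests on 1 array and on the spread of the other comparisons. YRF1-7 and PAU11 passed in this way without replicate 1, and PAU13 without replicate 2, although the arrays of PAU13 have opposite signs. These passes are not read as support. YRF1-6 was at −0.39 and −0.72 (−0.55 ± 0.23, adjusted p = 0.191). Each Y′ helicase copy was thus below 0 on both arrays in the mutant as well, though neither passed.

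COS6 was at 0.09 and −0.56 in the mutant, on both sides of 0, and its mean of −0.24 ± 0.46 did not pass. COS8 was at −0.01 and −0.43 and COS1 at −0.06 and 0.15. COS12 had 1 value, −0.48 on replicate 2. Replicate 2 was the lower array for COS6, COS8 and both YRF1 copies.

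PAU23 was at 0.26 and 0.28 (0.27 ± 0.02, adjusted p = 0.137), the highest mean of the PAU genes tested. PAU3 had the lowest, −0.33 ± 0.35, from −0.08 and −0.58. PAU16 was at 0.19 and 0.24, PAU17 at 0.27 and 0.12, and PAU6 at 0.18 and 0.06. PAU4 was at 0.53 and −0.45, PAU13 at −0.69 and 0.20, and PAU2 at 0.02 and −0.20, so the arrays put these 3 on opposite sides of 0. The median of the 8 PAU genes tested was 0.08, that of the 3 COS genes −0.22 and that of all genes 0.01. The COS median was −0.45 without replicate 1, where 4 genes entered, and −0.01 without replicate 2, over 3 genes. PAU1, which rose in the wild type, had 1 value in the mutant, 0.30 on replicate 2. On the same array alone, PAU10 was at −0.02, PAU12 at 0.38, PAU18 at 0.03 and PAU24 at −0.33. COS111 had its 1 value of the series, 0.01, on replicate 1.

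PAU11 had the highest of all 4556 values on replicate 2 of zinc in pif1, 4.29, or 19.6-fold. It had no value on replicate 1 of that comparison and so no test. The next values on this array were 3.93 for SHG1, which stood at −0.99 on replicate 1, and 3.35 for HSP26, at 3.28 on replicate 1. Of 284 IDs with a value on this array but not on its partner, PAU11, YOR121C and CSN9 were 4-fold or more higher and 2 lower by as much. The other value of PAU11 in the series was −0.25, for pif1 over wild type without zinc on replicate 2. This spot has no second measurement to set against it.

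The zinc response of the 2 strains, which was measured on different RNAs and arrays, had the same sign in 8 of the 12 genes of these families with both means, against 79.1% of all 4086 genes. The 8 are PAU2, PAU13, PAU17, COS1, COS6, COS8, YRF1-6 and YRF1-7. Across these 12 genes the means correlated at 0.424, and across all genes at 0.815, as a description. The 4 genes that differed in sign are PAU3, PAU4, PAU16 and PAU23.

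**Figure D3:**
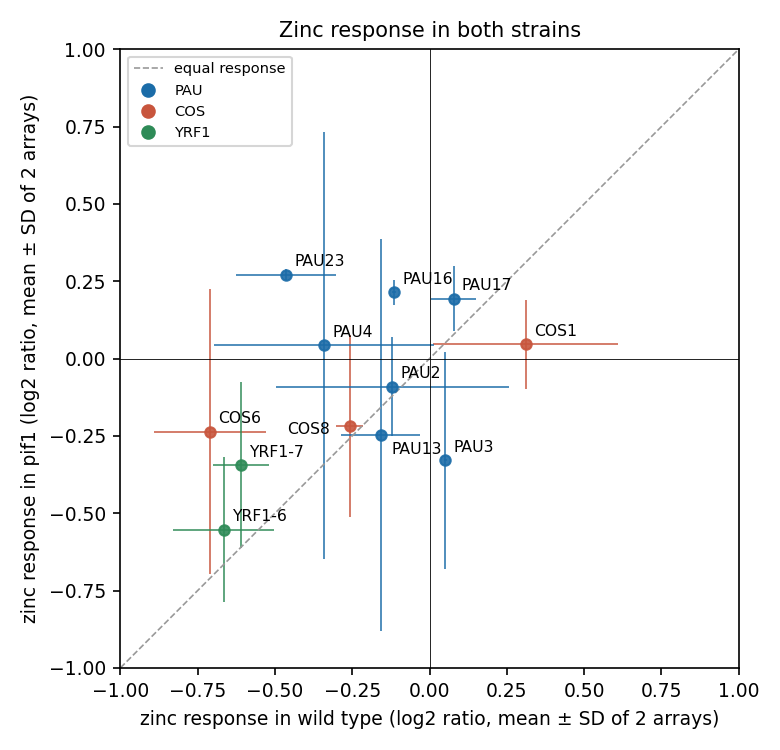
Mean centred log2 ratio of zinc over no zinc in the wild type (horizontal axis) and in pif1 (vertical axis) for the 12 genes with both, coloured by family. Bars are the SD of 2 arrays. Both YRF1 genes, COS6, COS8, PAU2 and PAU13 lie below 0 on both axes, and PAU23 lies to the left of 0 and above 0.

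The strain difference in zinc response could be tested for 10 of these genes, and none passed (0%), as was the case for all 3857 genes tested (0%), of which 247 had an unadjusted p below 0.05. This value averages an estimate from the zinc arrays and one from the pif1-over-wild-type arrays, and the 2 estimates had opposite signs in most genes: the sign was shared in 1700 of the 3857 genes and in 2 of these 10. Alone, the zinc arrays gave 16 genes past the threshold and the pif1-over-wild-type arrays 9, so the 0% of the average does not show that the strains responded alike. PAU23 had the largest difference of the 10, 0.35 (SE 0.127, unadjusted p = 0.0214, adjusted p = 0.576). Its 2 sources did not match: the zinc arrays alone gave 0.74 (adjusted p = 0.108) and the pif1-over-wild-type arrays alone −0.04 (adjusted p = 1). YRF1-7 and COS6, which passed in the wild type and not in the mutant, had differences of 0.08 (SE 0.137) and 0.22 (SE 0.19), which did not pass (adjusted p = 0.992 for both).

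Without zinc, none of the 12 genes of these families tested passed for pif1 over the wild type (0%, against 2.03% of 4722 genes, 1.44% higher and 0.593% lower). At so low a share of all genes, 0% does not show that these genes were alike in both strains. COS12 came closest: it was at 0.54 and 0.55, 1.46-fold higher in pif1 (0.54 ± 0.01, unadjusted p = 0.00568, adjusted p = 0.125). It passed in 4 alternatives. Its adjusted p was 0.0217 with arrays at 1 spread, 0.0266 at 1 distribution, 0.00471 with its 2 arrays alone and 0.0281 with array weights. In these settings 440, 436, 592 and 352 of all 4722 genes passed, against 96 otherwise. COS12 did not pass in the other alternatives, among them a dye term (adjusted p = 0.192) and the replicate block (adjusted p = 0.0504). COS8 had the lowest mean, −0.30 ± 0.10 (adjusted p = 0.389), from −0.23 and −0.37. COS6 was at 0.39 and −0.07, and COS1 at 0.01 and −0.17. Among the genes of these families tested in this comparison, COS12 had the highest mean and COS8 the lowest. PAU3 and YRF1-6 each had 1 value below both of COS8.

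YRF1-7 was at 0.08 and 0.12 without zinc, a mean of 0.10 ± 0.03, and YRF1-6 had 1 value, −0.58. The PAU means ran from −0.14 for PAU2 to 0.18 for PAU16. PAU23 was at 0.14 and 0.12, PAU17 at 0.06 and 0.22, PAU4 at 0.06 and −0.02, and PAU3 at −0.46 and 0.24. The median of the 7 PAU genes tested was 0.10 and that of the 4 COS genes 0.04, beside 0.00 for all genes. The COS median was −0.12 without replicate 1 and 0.20 without replicate 2. The PAU genes with 1 value were all on replicate 2: PAU1 at −0.09, PAU5 at −0.37, PAU10 at −0.33, PAU11 at −0.25, PAU13 at 0.15 and PAU14 at 0.02.

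With zinc, none of the 13 genes tested passed for pif1 over the wild type (0%, against 1.18% of 4657 genes), and none had an unadjusted p below 0.05. Here too the low share of all genes means that 0% does not show likeness of the strains. YRF1-6 had the highest mean, 0.54 ± 0.99, which came from 1.24 on replicate 1 and −0.17 on replicate 2 (adjusted p = 0.701). YRF1-7 was at 0.00 and −0.02 on the same arrays. The Y′ helicase copies thus gave no shared direction between strains.

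COS12 was at −0.25 and −0.21 with zinc (−0.23 ± 0.03, adjusted p = 0.765), below 0 where it had been above 0 without zinc. COS6 was at 0.30 and −0.06, COS8 at 0.06 and −0.12, and COS1 at −0.14 and 0.17, each with 1 array on either side of 0. Among the PAU genes PAU3 was lowest, at −0.30 on both arrays (adjusted p = 0.768), and PAU23 highest, with a mean of 0.09. PAU2 had a mean of −0.21, PAU16 was at −0.38 and 0.39, PAU4 at 0.15 and −0.30, PAU18 at −0.09 and −0.07, and PAU17 at 0.06 and −0.12. On replicate 2 alone, PAU1 was at −0.33 and PAU13 at 0.10. The medians were −0.07 for 7 PAU genes, −0.01 for 4 COS genes and −0.01 for all genes.

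**Figure D4:**
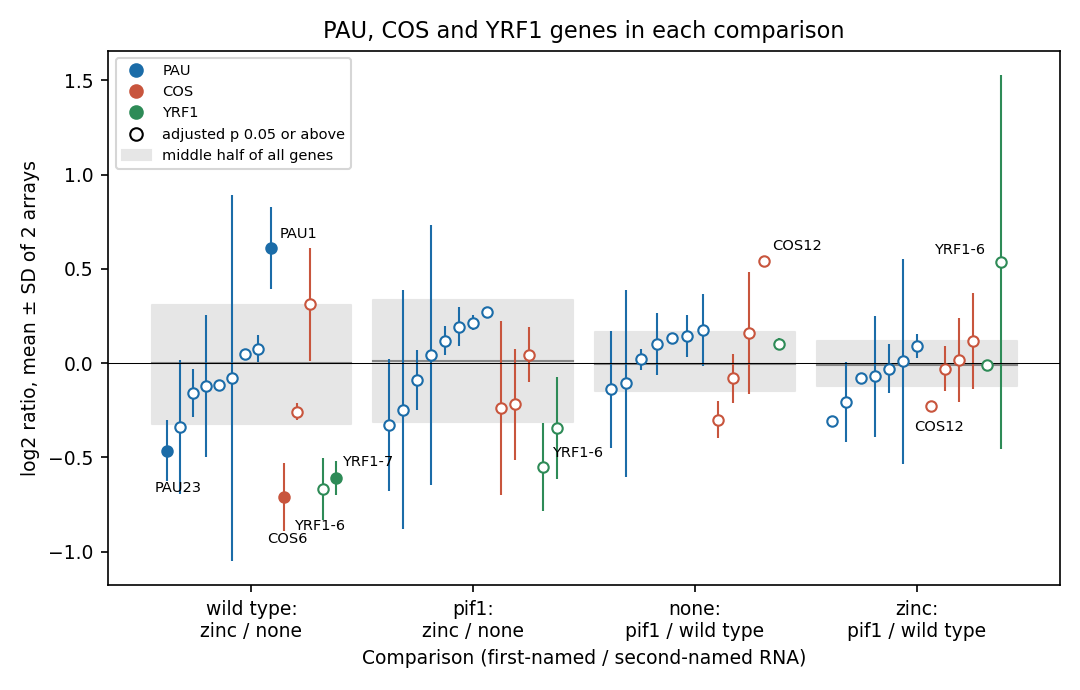
Mean centred log2 ratio of each PAU (blue), COS (red) and YRF1 (green) gene with values on both arrays, in the 4 comparisons. Bars are the SD of 2 arrays, filled points have an adjusted p below 0.05, and grey bands hold the middle 50% of all genes tested. The 4 filled points are PAU1, PAU23, COS6 and YRF1-7 in the wild-type zinc comparison, and no point is filled in the others.

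The spread between arrays was of a similar size in these families and in all genes. The median SD of the families was 0.164 for zinc in the wild type, 0.234 for zinc in pif1, 0.122 for pif1 without zinc and 0.129 for pif1 with zinc, against 0.144, 0.284, 0.134 and 0.139 over all genes. Both arrays had the same sign for 12 of 14, 8 of 13, 6 of 12 and 6 of 13 of these genes, against 79.5%, 65.6%, 64.4% and 56.4% of all genes. The lists below were chosen with earlier results of these data known, and their counts stand beside the shares of all genes given above.

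The anaerobic mannoproteins are cell wall proteins under a hypoxic control like that of the PAU genes. TIR1 fell with zinc in the wild type, at −0.82 and −1.26 (adjusted p = 0.0154), and in pif1, at −0.71 and −1.80 (adjusted p = 0.00661). DAN4 fell with zinc in pif1 (−0.62 ± 0.13, adjusted p = 0.0219). DAN1 rose in pif1 over the wild type with zinc, at 3.36 and 3.27, the highest value of both arrays (9.93-fold, adjusted p = 0.00647), as did TIR4, at 2.26 and 1.49 (adjusted p = 0.0264). TIR1 was at 0.91 ± 0.20 without zinc and 1.10 ± 0.34 with zinc in pif1 over the wild type, TIR3 at 1.42 ± 0.50 and 0.79 ± 0.05, and TIR2 at 0.63 ± 0.22 with zinc, and none of these passed. With zinc, TIR3 was at −0.56 in the wild type and −0.65 in pif1, DAN1 at −0.77 in pif1, TIR2 at −0.06 and DAN4 at −0.23 in the wild type, and none passed. DAN4 was at −0.13 without zinc and −0.05 with zinc in pif1 over the wild type. In all, 0 rose and 1 fell of 4 with zinc in the wild type, and 0 and 2 of 4 with zinc in pif1. For pif1 over the wild type the counts were 0 and 0 of 3 without zinc, and 2 and 0 of 6 with zinc. Of all genes, 30.3%, 31.3%, 2.03% and 1.18% passed in these comparisons, in the same order. No PAU gene had a mean above 0.18 in either pif1-over-wild-type comparison, so the difference of DAN1 and TIR4 was not seen in the measured PAU copies.

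ROX1, the repressor of hypoxic genes, rose with zinc in the wild type (0.47, adjusted p = 0.0375) and in pif1 (1.53 ± 0.15, adjusted p = 0.000189), and was lower in pif1 than in the wild type with zinc (−1.40 ± 0.16, adjusted p = 0.00507). Its strain difference in zinc response was 1.07 from the zinc arrays and −1.61 from the pif1-over-wild-type arrays. SUT1, a regulator of sterol uptake, was higher in pif1 without zinc (1.71 ± 1.01, adjusted p = 0.0235). ECM22, an activator of sterol genes, and TUP1, the corepressor that Rox1 recruits, fell with zinc in pif1 (−0.88 and −0.74). Of the listed regulators 1 rose and 0 fell of 6 with zinc in the wild type, 1 and 2 of 7 with zinc in pif1, 1 and 0 of 8 for pif1 without zinc, and 0 and 1 of 8 for pif1 with zinc. Of the other oxygen-regulated targets listed, 1 rose and 2 fell of 7, 1 and 3 of 6, 0 and 0 of 8, and 1 and 0 of 9, in the same order. The shares of all genes that passed were 30.3%, 31.3%, 2.03% and 1.18% in that order. COX5B, the hypoxic subunit of cytochrome c oxidase, rose with zinc in the wild type (1.61) and in pif1 (1.03). AAC3, a hypoxic ADP/ATP carrier, fell with zinc in the wild type (−0.63) and in pif1 (−0.55) and was higher in pif1 than in the wild type with zinc (0.77, adjusted p = 0.0386). NCP1, a P450 reductase, fell in the wild type (−0.75), and OLE1, the fatty acid desaturase, and ANB1, a hypoxic translation factor, fell in pif1 (−1.21 and −0.55).

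The ESCRT and ubiquitin genes sort the membrane proteins on which the Cos proteins act. With zinc in the wild type 6 of 18 rose and none fell, among them VPS60 (0.77), DID2 (0.76), HSE1 (0.58) and IST1 (0.57). With zinc in pif1 3 of 15 rose and 3 fell, among them SRN2 (0.55), and the ubiquitin ligase gene RSP5 (−0.90), BRO1 (−0.63) and VPS27 (−0.57). None of 19 and 18 passed for pif1 over the wild type without and with zinc. The 6 of 18 in the wild type (33.3%) stand beside the 30.3% of all genes that passed there, 14.7% upwards. Of the 3 COS genes tested there, COS6 fell, while COS8 (−0.26) and COS1 (0.31) did not pass. A relation between the COS genes and the sorting genes was not tested.

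Of the telomere maintenance genes, RAP1, which binds telomere repeats, fell with zinc in the wild type (−0.46, adjusted p = 0.0293; 0 rose and 1 fell of 14) and in pif1 (−0.73), where TBF1 also fell (−0.93) and the telomerase subunit gene EST3 rose (0.68), 1 and 2 of 13. CDC13, whose protein binds the single strand at telomeres, was higher in pif1 without zinc (0.85 ± 0.09, adjusted p = 0.0488), 1 of 14, and none of 14 passed with zinc. The telomere genes that passed were 7.14% with zinc in the wild type and 23.1% in pif1, against 30.3% and 31.3% of all genes. For pif1 without zinc they were 7.14%, against 2.03%. Of the silencing genes SIR2 fell with zinc in the wild type and in pif1 (−0.68 and −0.64), with SAS2 (−0.71) in the first and HST3 (−0.57) in the latter. These were 2 of 14 and 2 of 11, with none rising, and none of 13 passed in either pif1-over-wild-type comparison. The 2 of 14 in the wild type (14.3%) stand beside the 15.6% of all genes that fell there.

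Position near an end did not go with a common fall, and with zinc more such genes rose than fell. Other genes within 10 genes of an end, with these families set aside, had a median of 0.09 with zinc in the wild type. There 35 rose and 20 fell of 143 (38.5%), against 14.7% of all genes upwards and 15.6% downwards. The share that rose was 24.5% at 1 to 5 genes from an end and 24.4% at 6 to 10. With zinc in pif1 the median was 0.05, and 28 rose and 16 fell of 131 (33.6%). All genes gave 15.5% upwards and 15.8% downwards there. For pif1 over the wild type 4 were higher and 6 lower of 136 without zinc (7.35%), and 6 and 2 of 138 with zinc (5.80%), where all genes gave 2.03% and 1.18%. Leaving out either replicate left no such call in these last comparisons. With zinc in the wild type 23 such genes passed without replicate 1 and 26 without replicate 2, against 55 with both arrays, and 21 and 25 of these were among the 55. Of the other subtelomeric gene families listed, 5 rose and 1 fell of 24 with zinc in the wild type (25%, against 30.3% of all genes). With zinc in pif1 5 rose and 1 fell of 22 (27.3%, against 31.3%). Those that rose in the wild type include the aryl alcohol dehydrogenase genes AAD6 (1.62) and AAD3 (1.02), the acid phosphatase gene PHO11 (0.81) and the hexose transporter gene HXT15 (0.79). In pif1 they include the formate dehydrogenase gene FDH1 (0.69), the thiamine genes THI11 (0.66) and THI13 (0.53) and AAD4 (0.54). IMD2, an IMP dehydrogenase gene, fell in the wild type (−0.70) and in pif1 (−0.76). None of 19 and 20 passed for pif1 over the wild type without and with zinc.

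Many calls of these related genes also rest on both arrays. Of the listed genes named above, AAD6 and COX5B still passed with zinc in the wild type when either replicate was left out. With zinc in pif1 TIR1, ROX1, ECM22, COX5B, OLE1, RSP5, TBF1, RAP1, SIR2 and IMD2 did. For pif1 over the wild type no named list gene passed in both cases: without zinc SUT1 passed without replicate 2 only, and with zinc DAN1 had an adjusted p of 0.0938 without replicate 1 and 0.0705 without replicate 2.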

How the data were processed

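The authors deposited 1 table of log2 ratios, 1 column per array, for 6212 IDs. Per the labels, 8 ug of total RNA per channel was primed with oligo(dT) and labelled, and spots under 120 um or with fluorescence below 100 units in Cy3 and Cy5 were left out. Scanner, background correction, normalization and log base are not given in the sources used here. The base was taken as 2, from the size of the values, and the RNA named first in a label as the numerator, from PIF1 and from pairs that correlate above 0 with dyes exchanged; the authors' centring is unknown. Column medians were −0.064, −0.036, 0.0745, −0.0365, −0.033, −0.013, −0.027 and −0.027, in the order of the comparisons. Values above 16 in size (2, both of PIF1) were set to missing.

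Arrays were centred on their median and tested with limma 3.58.1 in R 4.3.3 (lmFit, eBayes; 1 coefficient per comparison, spread pooled over 8 arrays, genes with values on both arrays of a comparison). The strain difference averaged its estimates from the zinc arrays and from the pif1-over-wild-type arrays, over genes with 8 values. Symbols came from NCBI's R64 table by locus tag (5662 IDs matched), which was used for names and gene order only. Deviations of same-numbered arrays correlated at 0.393 to 0.51 in all pairs of comparisons, so the numbers were taken as pairs; with them as a block, 291 and 122 genes passed for pif1 without and with zinc (96 and 55 otherwise), and 17 for the strain difference (0 otherwise).

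The genes and lists were chosen with earlier results of these data known. Named were PIF1, every member of the families that passed, the highest and lowest of each family in a comparison, those with 8 values, every listed mannoprotein, and up to 4 genes past the threshold per list and comparison. PAU11, the genes set beside it, the other genes with values on 1 array, and HSP26 were named after their values were seen. Alternatives covered the centring and scaling, filters, array weights, robust eBayes, a dye term, the replicate block, a fit of 2 arrays alone and leaving out each array. A run of 75 IDs misaligned on the wild-type zinc arrays held none of the PAU, COS and YRF1 genes. The run stayed in the counts of all genes and held the listed genes MRE11 and ESC1. Their wild-type zinc values (0.014 and −0.155), which did not pass, may belong to other IDs. The number of arrays limits the precision.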

Additional observations from a re-analysis of the deposited data

Results flagged for a closer look

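The zinc response of 3 PAU genes lay on opposite sides of 0 in the 2 strains on every array, which is why they are listed here. This was looked for in these families only, and the share of all genes that did so was not counted. By the means, 8 of 12 genes of these families had the same sign in both strains, against 79.1% of 4086 genes. PAU23 was at −0.35 and −0.58 in the wild type (mean −0.464) and at 0.26 and 0.28 in pif1 (mean 0.271). PAU16 was at −0.12 and −0.11 in the wild type (mean −0.115) and at 0.19 and 0.24 in pif1 (mean 0.215). PAU3 was at 0.05 on both wild-type arrays (mean 0.051) and at −0.08 and −0.58 in pif1 (mean −0.33). The strain difference in zinc response, tested with limma over all genes, did not pass for any of them, with adjusted p-values of 0.576 for PAU23, 0.992 for PAU16 and 0.91 for PAU3. From the zinc arrays alone the differences were 0.74, 0.33 and −0.38, with adjusted p-values of 0.108, 0.64 and 0.613.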

How the results depend on the processing

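The strain difference from the zinc arrays only and from the pif1-over-wild-type arrays only was added after seeing the data. The cause of a change was not tested. Without 1 replicate, a comparison has 1 array left and its spread comes from the other comparisons. For zinc in pif1 more genes then passed, not fewer. With arrays at 1 spread, at 1 distribution and without 1 replicate, the genes past the threshold with zinc in the wild type went from 1403 to 713, 690 and 441 to 477, and those of these families from 4 to 1, 1 and 0 to 0; with the 2 arrays alone 5 passed (YRF1-6 added). With zinc in pif1 the genes went from 1338 to 413 (1 spread), 420 (1 distribution), 526 (2 arrays alone) and 302 (array weights), and those of these families from 0 to 1 with values on at least 1 array (PAU11), 1 with the replicate block (YRF1-7) and 1 to 2 without 1 replicate. For pif1 without zinc the genes went from 96 to 440, 436, 592 and 352 in the same settings and to 1 to 13 without 1 replicate, and those of these families from 0 to 1 in each of the 4 (COS12). For pif1 with zinc the genes went from 55 to 371, 317, 267 and 189 and to 2 to 3 without 1 replicate, and those of these families from 0 to 1 with 2 arrays alone (YRF1-6). For the strain difference the genes went from 0 to 7 (1 spread), 6 (1 distribution), 3 (array weights), 16 (zinc arrays only) and 9 (pif1-over-wild-type arrays only), and without 1 array from 0 to 52, the highest without replicate 1 of zinc in pif1 and 19 without its replicate 2.

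With the replicate number as a block, the paired counts were 291 genes for pif1 without zinc, 122 for pif1 with zinc and 17 for the strain difference. The block changed the call of YRF1-7 with zinc in pif1 and no other call of these families.

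The COS median with zinc in the wild type was −0.31 without centring, −0.19 at 1 spread, −0.21 at 1 distribution, −0.48 with values on at least 1 array and −0.54 to −0.23 without 1 replicate. The PAU median went from −0.11 to 0.13 without 1 replicate of zinc in the wild type (11 genes each). For zinc in pif1 it went from 0.092 (14 genes) to 0.18 (8 genes). Medians without 1 replicate or with values on at least 1 array can include genes with 1 value, so the set of genes may differ too. For pif1 without zinc the PAU median was 0.13 at 1 spread, 0.14 at 1 distribution, 0.0195 with values on at least 1 array and −0.017 to 0.08 without 1 replicate. For pif1 with zinc it was −0.10 without centring, −0.10 at 1 spread, −0.14 at 1 distribution, −0.0508 over genes with 8 values and −0.091 to −0.069 without 1 replicate, where the COS median was −0.089 to −0.0425. The strain difference of PAU23 changed sign to −0.0405 from the pif1-over-wild-type arrays only.

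The genes near chromosome ends past the threshold ranged from 23 to 75 with zinc in the wild type (55 as reported), 10 to 57 with zinc in pif1 (44), 0 to 36 for pif1 without zinc (10) and 0 to 24 for pif1 with zinc (8). Over 58 results of these families that did not pass, 48 of 755 alternative values changed sign and 9 passed. Sparse values limit these families more than other genes.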
